A study of Mus musculus with 4 samples.

Results

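The regions described here are H3K27me3 regions that were called in rosette stem cells of the mouse embryonic stem cell line CGR8 and had no counterpart in those of the line R1. A CGR8 region was taken when it lay on chromosomes 1 to 19, outside a block of chromosome 1 from 104000001 to 124000000, and overlapped no R1 H3K27me3 region by even 1 bp. This left 4772 CGR8-only regions of 14401 CGR8 regions on those chromosomes and of 14575 in the whole CGR8 list, so that 33.1% of the regions compared were CGR8-only. The members were chosen by the called positions of both H3K27me3 lists, and whatever is said of their H3K27me3 is therefore a description. The converse set, 1801 R1-only regions of 11794 (15.3%), was drawn by the same rule from the R1 list and serves as a point of reference, together with the 9629 shared regions of the CGR8 list.

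Rosette stem cells are pluripotent cells held between the naive and the primed state. CGR8 cells (strain 129/Ola) and R1 cells (strain 129) had been grown on gelatin and serum-coated plates for 8 days in N2B27 medium with LIF, a cytokine that sustains naive pluripotency, 2 µM IWP2, an inhibitor of WNT secretion, and 1 µM PD325901, which inhibits the kinase MEK. Both lines received the same treatment. H3K27me3 and H3K4me3 were each mapped by chromatin immunoprecipitation and sequencing in 1 library of each line, 4 libraries in all. A difference between the lines thus has no replicate check and no p-value is given, and line, culture and library cannot be told apart. The labels name 2 suppliers for the H3K27me3 antibody, and the part of the antibody in such a difference was not tested.

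H3K27me3 is laid down by Polycomb repressive complex 2, whose EZH1 or EZH2 subunit methylates lysine 27 of histone H3. In pluripotent cells it is strongest at CpG-rich promoters of silent developmental genes, many of which also carry H3K4me3 and are called bivalent, and it spreads more weakly over intergenic sequence and silent gene bodies. H3K4me3 is found at the promoters of active and of poised genes.

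The lists give no read totals. Scores are those the authors deposited, without a unit or formula. In the shortest regions they equal Poisson log-probabilities (natural log, sign reversed) added up over 200 bp windows. That the scores of all regions are such sums, which grow with width, is an inference from this match, and so are the reads per window and the reading of a score per kb. The mean number of reads per window that the scores imply was, with H3K27me3, 2.11 in CGR8 and 1.92 in R1, a ratio of 1.097. With H3K4me3 it was 0.740 and 0.706, a ratio of 1.049. For R1 H3K27me3 it matched 2 of 2 regions of 400 bp and 6 of 6 of 600 bp within 1e-06. The lowest score listed was 70.6 in CGR8 and 59.4 in R1. Over 8038 H3K27me3 regions that paired 1 to 1 between the lines, the score was higher in CGR8 by a median of 0.25 on the log2 scale (95% interval 0.24 to 0.26 from order statistics, over regions), the width by 0.15 and the score per kb by 0.080. The CGR8 library thus stood above R1 over H3K27me3 regions that both lines had, and a region missing from the R1 list was not detectable as a call there, and the mark may still be present below the limit. The part of this library difference in the number of CGR8-only regions was not tested.

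CGR8-only regions were weak and diffuse. They were 400 bp to 42000 bp wide with a median of 6800 bp, and 79.5% were over 4 kb and up to 10 kb wide. Shared regions of the CGR8 list had a median of 8200 bp, and R1-only regions 5200 bp. In all, CGR8-only regions covered 34.1 Mb, or 25.7% of the 132.6 Mb under H3K27me3 in CGR8, while R1-only regions covered 9.66 Mb, or 10.3% of 93.9 Mb in R1. Their scores ran from 70.6 to 906 with a median of 90.4, and 3013 of them (63.1%) stood below 100. At shared regions the median was 189 and the middle 50% of regions ran from 116 to 370, against 78.8 to 112 at CGR8-only regions.

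The gap was also present per unit of length. The median score per kb was 14.2 at CGR8-only regions, with 80% of them from 10.2 to 21.5, and 24.6 at shared regions, with 80% from 14.1 to 53.3. R1-only regions, scored in their own library, had a median of 14.4. The histogram of score per kb shows a narrow peak of CGR8-only regions at the left edge of a broad distribution of shared ones.

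**Figure D1:**
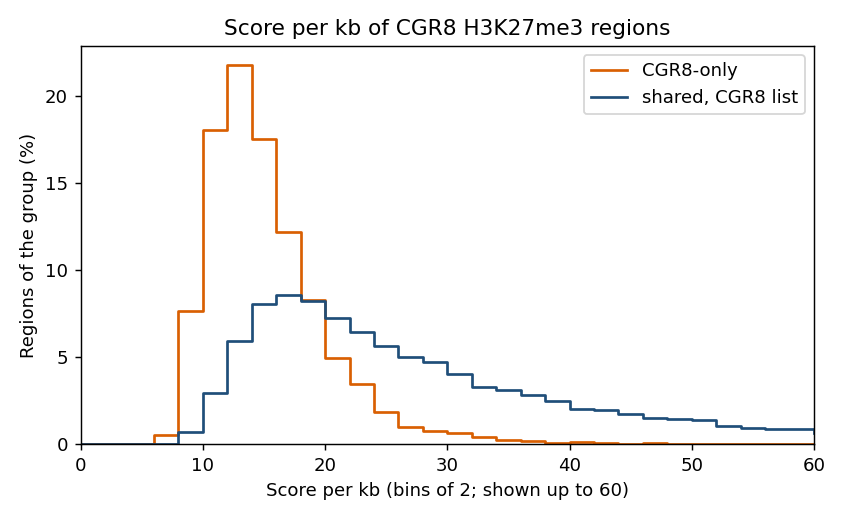
Score per kb of CGR8 H3K27me3 regions. The x axis gives the score per kb in bins of 2 and the y axis the percentage of each group, for CGR8-only regions (orange) and shared regions (blue). The CGR8-only regions sit around their median of 14.2, and the shared regions extend far to the right of it around a median of 24.6.

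Membership fell steadily with score. With the 14401 regions divided by score into 10 classes of 1440 or 1441, CGR8-only regions made up 71.2% of the lowest class (scores 70.6 to 77.6), 50.9% of class 4 and 35.9% of class 5. They made up 14.9% of class 7, 4.93% of class 8, 0.625% of class 9 (9 regions) and 0.139% of class 10 (2 regions). The lower-scoring 50% of the list held 4086 of the 4772 (85.6%), against 3115 of the shared regions (32.4%). R1-only regions fell in the same way through the classes of the R1 list, from 44.2% of the lowest class to none of the highest.

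At equal score CGR8-only regions were wider, and so thinner, than shared ones. In the lowest class their median width was 5600 bp, against 4600 bp for shared regions, in class 5 it was 8000 bp against 6400 bp, and in class 8 it was 14200 bp against 9800 bp. The score per kb, which is score over width and so restates this, was 13.4 against 16.1 in the lowest class and 17.6 against 27.1 in class 8. The difference in median width had the same direction in all 10 classes, which rest on 9 and 2 members in classes 9 and 10.

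**Figure D2:**
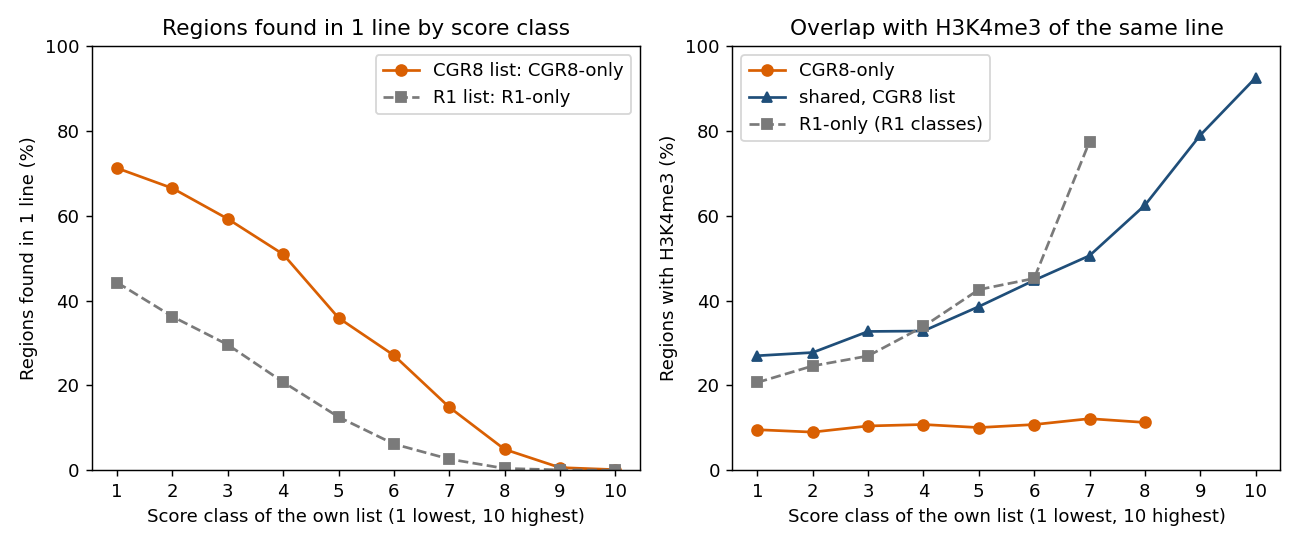
Score classes of H3K27me3 regions, with class 1 the lowest-scoring 10% of a list. The left panel gives the percentage of each class found in 1 line, for the CGR8 list (orange) and the R1 list (grey), and the right panel the percentage of regions that overlap H3K4me3 of the same line, for CGR8-only, shared and R1-only regions, with classes of under 20 regions left out for the regions of 1 line. The CGR8-only line in the right panel stays between 8.99% and 12.1%, while the shared line climbs from 26.99% to 92.5%.

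H3K4me3 of either line overlapped a smaller share of CGR8-only regions than of shared regions. The share that random placement would give is not available here, so a depletion relative to the genome is not shown. An H3K4me3 region of CGR8 overlapped 484 of them (10.1%), and one of R1 overlapped 460 (9.64%). Among shared regions these numbers were 5431 (56.4%) and 5457 (56.7%). No H3K4me3 of either line overlapped 4211 CGR8-only regions (88.2%), against 3964 shared regions (41.2%). The H3K4me3 lists took no part in choosing the members, and each comes from 1 library.

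Over the 8 lower score classes the share with H3K4me3 changed little with the H3K27me3 score, while it climbed for shared regions. Of the CGR8-only regions, 9.55% overlapped H3K4me3 of CGR8 in the lowest class, 10.8% in class 4, 10.8% in class 6 and 11.3% (8 of 71) in class 8. The shared regions of the same classes had 26.99%, 32.8%, 44.8% and 62.5%. Above these, 2 of 9 members in class 9 and 2 of 2 in class 10 overlapped H3K4me3. With shared regions weighted to the score classes of the members, 33.5% of them overlapped H3K4me3, against 10.1%. Weighting to classes of both score and width gave 24.7% against 10.3% (4639 members, since 133 lay in classes with fewer than 10 shared regions), and weighting to classes of score per kb gave 24.1% against 10.1%. With each of these 3 weightings the shared regions kept a higher share than the members. Inside a score class the members still had a lower median score per kb than shared regions. The part of this in the H3K4me3 difference was not tested.

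R1-only regions had H3K4me3 more often. H3K4me3 of R1 overlapped 515 of 1801 (28.6%), and shared regions weighted to their score classes in the R1 list had 22.8%. Weighting to classes of score and width gave 21.1% against 28.7% (1793 members). With classes of score per kb the gap was smaller, 26.8% against 28.6%. Their share rose from 20.7% in the lowest class to 42.6% in class 5 and 77.4% (24 of 31) in class 7. The 2 sets come from different libraries and lists, and the difference between them was not tested.

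H3K4me3 was also farther from CGR8-only regions than from shared ones, again without a reference from random placement. The median distance from a CGR8-only region to the nearest CGR8 H3K4me3 region was 27.8 kb, and 1297 of them (27.2%) had one within 10 kb and 3114 (65.3%) within 50 kb. Of the shared regions 69.7% had one within 10 kb and 86.4% within 50 kb, or 80.1% within 50 kb after weighting to the members' score classes. For R1 H3K4me3 the median distance from CGR8-only regions was 29.0 kb and the share within 50 kb 63.9%.

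Where H3K4me3 was present at a CGR8-only region, it was mostly a single region, less often central than at shared regions. The position that random placement would give was not computed. Of the 484 members, 472 held 1 H3K4me3 region and none more than 2, whereas shared regions held up to 15. Among 490 H3K4me3 regions that met exactly 1 member, 198 (40.4%) reached past its boundary and 205 (41.8%) had their centre in its central 50%. At shared regions 17.4% of 6401 reached past the boundary and 65.9% were central. At R1-only regions 59.3% of 526 crossed the boundary. Members with H3K4me3 were slightly narrower than those without, with a median of 6000 bp against 6800 bp, and their median score was 92.2 against 90.3. At shared regions the order in width was the reverse, 9000 bp with H3K4me3 and 7600 bp without, and the scores were 285 and 132.

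The H3K4me3 regions themselves ranked low. Those of CGR8 inside CGR8-only regions had a median score of 104.5 and a median width of 1400 bp, against 348 and 1600 bp inside shared regions and 334 and 2000 bp over all 24519 on these chromosomes. Of the 493 H3K4me3 regions of CGR8 at members, 96 (19.5%) had no R1 counterpart, against 4.28% at shared regions and a background of 10.2% for all H3K4me3 regions of CGR8. Of the 469 of R1 at members, 68 (14.5%) had no CGR8 counterpart, against 5.57% and a background of 7.38%. Both shares at members were above their backgrounds, but at H3K4me3 regions of lower score. For R1 the median scores were 110 at members and 367 over all. No background was matched for score.

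The H3K4me3 score could be set between the lines only where both had a call. The 96 H3K4me3 regions of CGR8 and 68 of R1 at members without a counterpart are thus left out. Inside CGR8-only regions, 380 H3K4me3 regions paired 1 to 1 between the lines. Their median log2 score ratio of CGR8 over R1 was -0.014 (95% interval -0.071 to 0.033 from order statistics, over regions). It was -0.020 for 6054 pairs in shared regions, 0.094 for 474 pairs in R1-only regions and 0.045 for 14300 pairs outside H3K27me3 of both lines. When pairs were grouped into 10 classes of H3K4me3 score, the mean of the class medians was -0.024 at CGR8-only regions and -0.040 at shared regions with the same weights. The values at CGR8-only and at shared regions both lay below the median of 0.029 over all 21318 pairs. That median is inside the interval at CGR8-only regions, which covers counting over regions and not variation between libraries. At members 208 of 380 pairs (54.7%) were below that median.

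A further question was whether these regions lay at the flanks of H3K27me3 that both lines had, or apart from it. Most lay apart. The median distance from a CGR8-only region to the nearest shared region of the CGR8 list was 33600 bp, and the middle 50% ran from 8750 bp to 102000 bp. Within 10 kb of a shared region were 1311 (27.5%): 155 had one on both sides and 1156 on a single side. Within 2 kb were 534 (11.2%), and 1945 (40.8%) were more than 50 kb away. No H3K27me3 regions of a list lie closer together than 800 bp, so H3K27me3 that ran on from a shared region with smaller gaps is counted within that region and is not among the members.

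Shared regions stood closer to one another than CGR8-only regions stood to them. The median distance between a shared region and the next was 22.6 kb, with 37.2% within 10 kb, or 37.9% when weighted to the members' score classes. Within 2 kb, 21.4% of shared and 11.2% of CGR8-only regions had a shared neighbour. The shares were 29.4% and 18.5% within 5 kb, and 76.4% and 74.5% within 100 kb. R1-only regions were farther off, with a median of 47.4 kb, 24.2% within 10 kb and 34.6% more than 100 kb away, against 25.5% of CGR8-only regions.

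**Figure D3:**
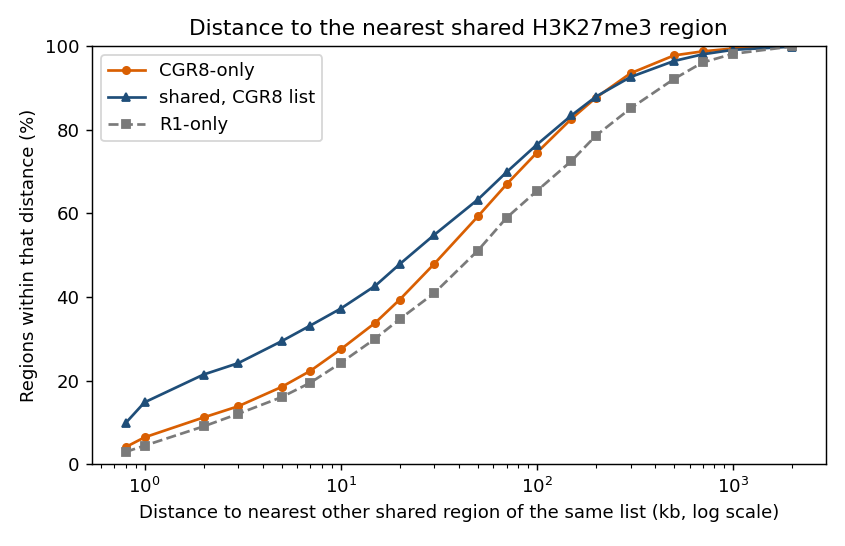
Cumulative share of H3K27me3 regions by distance to the nearest other shared region of the same list. The x axis is in kb on a log scale, and the lines show CGR8-only regions (orange), shared regions of the CGR8 list (blue) and R1-only regions (grey). At 10 kb the lines stand at 27.5%, 37.2% and 24.2%, and by 100 kb the CGR8-only and the shared line have nearly met.

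Flanking and isolated members looked much alike. Those within 2 kb of a shared region had a median width of 6600 bp, a median score of 96.9 and 14.8 score units per kb, and those over 200 kb away (590 regions) had 6600 bp, 88.0 and 14.5. H3K4me3 of CGR8 overlapped 8.61% of the first and 9.66% of the second, with 9.52% to 10.8% in the classes between. The higher-scoring 50% of the list held 20.2% of the members within 2 kb and 12.9% to 14.2% of those at other distances. At shared regions, by contrast, overlap with H3K4me3 went from 47.2% within 2 kb to 67.4% beyond 200 kb.

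Seen from the R1 list, the nearest R1 H3K27me3 region was a median of 29.9 kb away and at most 2111.4 kb. It lay within 10 kb of 1319 members, and for 1193 of these it was itself a shared region, while for 126 it was R1-only. Of the 1311 members within 10 kb of a shared CGR8 region, the R1 region was farther away than that CGR8 region in 821, equally far in 156 and nearer in 334. For 1001 members (21.0%) no other H3K27me3 region of either line lay within 50 kb.

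The edge of the rule ran through similar regions. The gap to R1 was 0 bp at 17 members, of which the highest-scoring lay on chromosome 15 from 99389401 to 99403000 (score 177) and on chromosome 19 from 57341201 to 57355400 (score 176). Just outside the rule, 11 shared regions were overlapped by 200 bp only, led by chromosome 8 from 47388401 to 47397400 (score 147) and chromosome 12 from 86800001 to 86806600 (score 126). R1 covered less than 50% of 1035 shared regions (10.7%).

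Few members had a high score. The 3 highest score classes held 82 members (1.72%), 6.6 to 42 kb wide with a median of 14.4 kb. They had a median of 17.9 score units per kb. H3K4me3 of CGR8 overlapped 12 of them (14.6%), and 5 had H3K4me3 of R1. Since 71 of the 82 were in class 8, the shared regions of that class are the nearest in score, and these had 27.1 score units per kb and H3K4me3 at 62.5%. Shared regions lay within 10 kb of 20 of them and more than 50 kb from 33.

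The widest 5 members were also the 5 of highest score. The region on chromosome 16 from 35478601 to 35520600 (42 kb, score 906) ranked 618 in the CGR8 list, held 1 H3K4me3 region in each line, and lay 1.8 kb from a shared region and 8.4 kb from the nearest R1 region. On chromosome 3 from 79221801 to 79249600 (27.8 kb, score 572) there was likewise 1 H3K4me3 region in each line, and the nearest shared region was 27.2 kb away. The regions on chromosome 8 from 12148601 to 12179800 (31.2 kb, score 488) and on chromosome 7 from 133190601 to 133216800 (26.2 kb, score 477) held no H3K4me3 of either line, and their nearest CGR8 H3K4me3 was 96.8 kb and 5.2 kb away. The region on chromosome 10 from 120246401 to 120271800 (25.4 kb, score 407) held 1 H3K4me3 region of CGR8, while the nearest of R1 was 41.2 kb away. All 5 thus lay in score classes 9 and 10, yet their score per kb, 15.6 to 21.6, was below the median of 24.6 of shared regions.

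Close to shared regions, the next in score after those of chromosomes 16 and 7 were on chromosome 11 from 11880601 to 11904600 (24 kb, score 296, 0.8 kb from a shared region and 6.4 kb from R1) and on chromosome 5. There they ran from 21802601 to 21813800 (11.2 kb, score 281) and from 38239401 to 38259200 (19.8 kb, score 281), each 1.8 kb from the nearest R1 region. None of these 3 held H3K4me3.

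Members with H3K4me3 in both lines numbered 383. After the regions of chromosomes 16 and 3, the highest scores among them were on chromosome 2 from 17775001 to 17788800 (13.8 kb, score 285), on chromosome 18 from 54975401 to 54987600 (12.2 kb, score 275) and on chromosome 18 from 76916001 to 76931200 (15.2 kb, score 227). The first and second of these lay 117.6 kb and 157.4 kb from a shared region, and the third 2.6 kb. In 76 members H3K4me3 of CGR8 overlapped and none of R1 lay within 5 kb, and in 53 members it was the other way round. The former were led, after the region of chromosome 10, by chromosome 1 from 182360401 to 182382800 (22.4 kb, score 298) and chromosome 2 from 179494001 to 179509400 (15.4 kb, score 276). The next were chromosome 6 from 88177801 to 88194600 (16.8 kb, score 251) and chromosome 13 from 56155001 to 56169200 (14.2 kb, score 238). At these places both marks were called in CGR8 and neither in R1.

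The most isolated members were small. They lay on chromosome 18 from 28234401 to 28239800 (score 81.8), on chromosome 13 from 5827401 to 5833800 (score 100.2) and on chromosome 17 from 61108801 to 61113400 (score 76.1) and from 76506601 to 76510400 (score 86.6), 3.8 to 6.4 kb wide. The fifth, on chromosome 1 from 48938201 to 48938600, was 0.4 kb wide with a score of 106, or 265 per kb. It was a narrower and steeper call than the others of this group, while the highest score per kb of any CGR8-only region was 521. All 5 were more than 2000 kb from a shared region, at 2038.8 kb to 2208 kb, and none held H3K4me3.

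CGR8-only regions were found on every chromosome, at 1.95 per Mb over 2451 Mb, against 3.93 per Mb for shared and 0.735 per Mb for R1-only regions. Their density followed that of shared regions, from 1.30 per Mb on chromosome 3 and 1.47 on chromosome 14 to 2.62 on chromosome 19 and 3.24 on chromosome 8 (rank correlation with shared regions per Mb 0.75 over 19 chromosomes, all from the same libraries). As a share of the CGR8 regions of a chromosome they ranged from 25.1% on chromosome 11 (262 of 1042) and 27.4% on chromosome 7 to 37.0% on chromosome 18 and 40.02% on chromosome 8 (427 of 1067). The remaining 15 chromosomes lay between 30.4% and 36.9%, so that chromosomes 11 and 7 stood below and chromosome 8 above a close group.

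Chromosome 8 also had the highest median score ratio of CGR8 over R1 for both marks, by a small margin for H3K4me3. Its 529 paired H3K27me3 regions come from the same lists that gave the members. They had a median log2 score ratio of 0.37 (CGR8 over R1), against 0.15 to 0.31 on the other 18 chromosomes. Its 1193 paired H3K4me3 regions had 0.058, the highest of 19 values from -0.0074 to 0.058, with chromosome 4 next at 0.052. R1-only regions made up 16.0% of the R1 regions there, within the range of 12.2% to 18.5% of all chromosomes. Over the 19 chromosomes the share of CGR8-only regions and the H3K4me3 ratio had a rank correlation of -0.016, and of -0.20 without chromosome 8. The part of these score differences in the chromosome 8 count was not tested. Without chromosome 8, 32.6% of CGR8 regions were CGR8-only, at 1.87 per Mb.

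**Figure D4:**
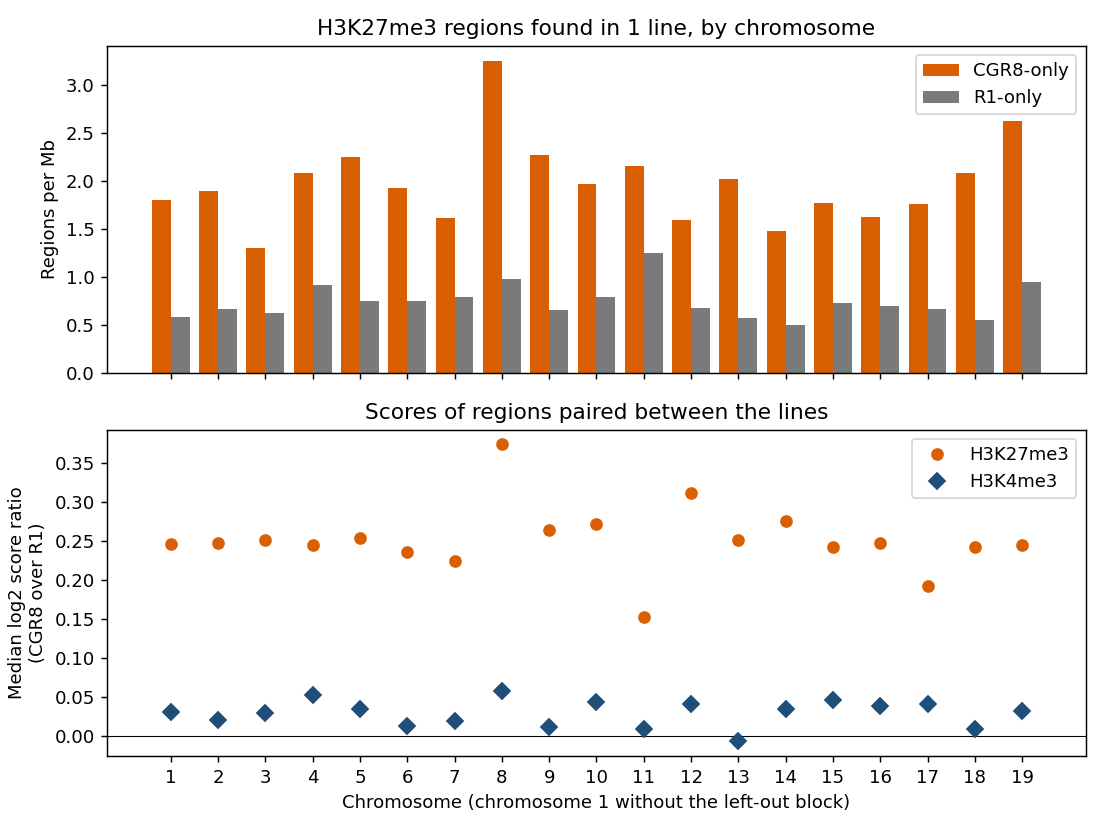
CGR8-only regions by chromosome. The upper panel gives regions per Mb called in 1 line (orange, CGR8-only; grey, R1-only), and the lower panel the median log2 score ratio of CGR8 over R1 for regions paired between the lines (orange circles, H3K27me3; blue diamonds, H3K4me3). Chromosome 8 has the tallest CGR8-only bar at 3.24 per Mb and the highest H3K27me3 ratio at 0.37, while its H3K4me3 ratio of 0.058 is close to those of the other chromosomes.

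Along the chromosomes CGR8-only regions were unevenly placed, as were shared ones. Of 2461 windows of 1 Mb, 945 held no member and 347 held at least 5, and the latter contained 2391 members (50.1%). For shared regions, which are more numerous, 518 windows held none and 841 held at least 5, with 7188 of them (74.6%). Their number per window rose with that of shared regions (rank correlation 0.64) and with that of CGR8 H3K4me3 regions (0.56), less closely than shared regions did with H3K4me3 (0.78), and it was weakly related to the number of R1-only regions (0.19). Neighbouring windows are not independent, and all counts come from the same 4 libraries. Windows without any shared region held 134 members, 2.81% of all. The windows of highest count were on chromosome 8 from 10000001 to 11000000 with 17 members and 4 shared regions, on chromosome 4 from 139000001 to 140000000 with 16 and 15, from 152000001 to 153000000 with 15 and 5 and from 124000001 to 125000000 with 15 and 13, on chromosome 7 from 38000001 to 39000000 with 15 and 14, and on chromosome 8 from 122000001 to 123000000 with 15 and 21. In these 6 windows 7 of the 93 members overlapped H3K4me3.

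Consecutive members with no shared region between them formed 2901 runs. A single member made up 1824 of these, and 1644 members (34.5%) belonged to runs of at least 3, a share for which there is no reference here. The longest run was on chromosome 8 from 10368401 to 10682400, where 10 members with scores of 70.8 to 136 covered 73.6 kb of 314 kb, with no R1 H3K27me3 region and 1 CGR8 H3K4me3 region in the whole stretch. The 5 runs of 9 lay on chromosome 8 from 91279801 to 92185400, from 24816201 to 25648400 and from 23432201 to 23923600, on chromosome 18 from 54731401 to 55127200 and on chromosome 5 from 149874401 to 150086400. The chromosome 18 run contains the region of score 275 with both marks named above, and the run ending at 23923600 had 2 members with H3K4me3 and 1 R1 H3K27me3 region in a gap. The chromosome 5 run was the most compact of the 6, with 92.8 kb covered of 212 kb, and 3 of its members held H3K4me3. Of these 6 runs of at least 9 members, 4 were on chromosome 8, which holds 8.95% of all members.

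**Figure D5:**
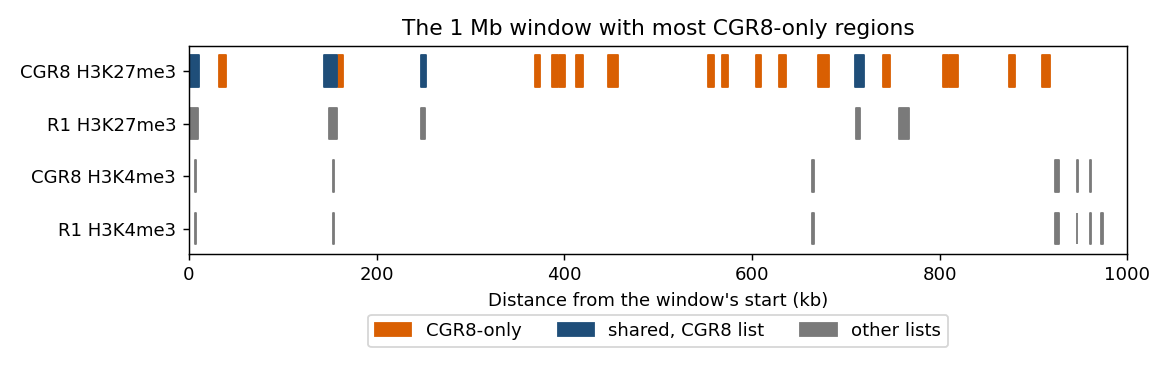
Called regions in the 1 Mb window of chromosome 8 that holds most CGR8-only regions. The x axis gives the distance from the start of the window in kb, and each row is 1 list, with CGR8-only regions in orange, shared CGR8 regions in blue and the other lists in grey. The 17 CGR8-only regions are scattered through the window, the run of 10 between the third and the fourth shared region, and none of them overlaps H3K4me3 of CGR8.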

How the data were processed

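H3K27me3 and H3K4me3 regions of 4 libraries were used, 1 of each line and mark, grouped by the labels. The authors deposited 1 list of regions per library with a score for each region. Build mm9 and the tools Bowtie2 2.0.2 (aligner), SICER 1.1 (region caller) and bedtools 2.20.1 are named, per the submitters' processing notes. Settings and any control library were not given in the sources used here. For the H3K27me3 antibody 2 suppliers appear in the labels. All bounds lie on a 200 bp grid, and positions are counted from 1. Gaps, overlaps and medians were computed in Python 3.11.15 (pandas 2.3.3, numpy 2.4.6, scipy 1.17.1), with matplotlib 3.10.9 for figures, and the code was tested on simulated lists. Chromosome length was the last position called in any list. Distances are between region edges. Mean reads per window were solved from the scores of 400 bp regions as sums of negative natural logs of Poisson probabilities and checked on regions of 600 bp. Intervals cover counting over regions only.

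Regions named by position are the 5 of highest score, greatest width or distance, the 5 highest near shared regions, with H3K4me3 in both lines or in CGR8 only, the top 5 windows and runs (6 of each, since the last place was tied), and 2 on each side of the rule. The members and rules were chosen with earlier results of these data known. The set of 82 high-scoring members was chosen after its values were seen. The gene tables used here are on another build, so no region is given a gene name or sequence.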

Additional observations from a re-analysis of the deposited data

Results flagged for a closer look

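On the X chromosome, which the rule leaves out, 25 of 138 CGR8 H3K27me3 regions (18.1%) overlapped no R1 region, and this is listed because these regions enter no comparison above. In the left-out block of chromosome 1, 0 of 34 CGR8 regions were without an R1 region. Of the R1 list, 11794 of 12511 regions were kept, against 14401 of 14575 for CGR8. The R1 list thus had more regions in the left-out places, and these shares do not measure agreement between the lines.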

How the results depend on the processing

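The number of CGR8-only regions fell when low-scoring CGR8 regions, among which members were most frequent, were dropped. It was 2964 of 11794 (25.1%) when the lowest-scoring CGR8 regions were dropped until both lists were equally long, and 686 of 7200 (9.53%) in its higher-scoring 50%. In that part, 11.7% overlapped H3K4me3, chromosomes 8 and 11 differed by 9.25 percentage points in place of 14.9, and the H3K4me3 ratio was 0.044 (53 pairs). In the shortened list 88.7% lay in the lower-scoring 50%. With at least 50% of a region covered to count as shared, there were 5807, of which 14.6% overlapped H3K4me3 and 75.8% lay in the lower-scoring 50%. The share within 10 kb of a shared region was 24.8% after regions under 1000 bp apart were merged and 14.5% for members at least 5 kb from R1. At limits of 5 kb and 50 kb it was 18.5% and 59.2%. H3K4me3 lay within 5 kb of 17.8%. The other alternatives moved these values by less than their counting intervals, or the number by less than 1.5 times, chromosome 8 left out (added after the data were seen) included. No paired analysis was possible because each line and mark has 1 library. Reads per library are unknown, which limits what a missing call shows.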
